A study of Mus musculus with 18 samples.

Results

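Pre-B cells that lack Artemis were compared with pre-B cells that lack RAG, both 2 days after the cytokine IL-7 was withdrawn. The members are the 3 withdrawn arrays labelled Art-/-:IgH:Bcl2 and the 3 withdrawn arrays labelled Rag-/-:IgH:Bcl2, chosen by genotype and time label, 6 of the 18 arrays of the series. Bone marrow came from mice aged 4 to 6 weeks on a mixed background of C57BL/6 and BALB/c, and was grown for 7 to 10 days in 5 ng/mL of IL-7. The design text names the Rag genotype as Rag1-/- and calls the 3 cultures of each genotype independent. Both genotypes carry a rearranged heavy-chain (IgH) transgene and a Bcl2 transgene, so neither group is a wild type, and no group has intact RAG and Artemis together. The same genotypes were also read in IL-7, and another genotype labelled Art-/-:Nfkb2-/-:IgH:Bcl2 was grown alongside, with 3 arrays per group throughout. Arrays of a genotype with the same number, in IL-7 and withdrawn, were taken as the same culture, since the titles give only the number. The groups are called Art, Rag and Art:Nfkb2 below, after their labels.

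RAG1 and RAG2 together cut the antigen receptor genes, leaving a hairpin at each coding end. Artemis opens those hairpins so that end joining can seal them, and without it the breaks persist. Persistent breaks activate the kinase ATM, which signals both to p53, the transcription factor of cell-cycle arrest and death, and to NF-kB, a family of inducible transcription factors of survival, inflammation and lymphocyte maturation. A pre-B cell with a heavy chain stops dividing and begins to cut its light-chain genes when IL-7 is taken away. Withdrawn Art cells are therefore used as a source of unrepaired breaks and Rag cells as their counterpart without breaks. Breaks themselves were not measured.

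All values are normalized log2 signals of Illumina MouseRef-8 arrays, so that a difference of 1 is a 2-fold difference. A gene is called where the limma test over all 8446 genes gave a Benjamini-Hochberg adjusted p below 0.05, and SE is limma's moderated standard error. A probe counts as detected on an array at a detection p below 0.01. In the 6 withdrawn arrays 10091 to 10245 of 25697 probes were detected, and replicate arrays correlated at 0.979 to 0.993. In withdrawn cells 856 genes were called higher in Art than in Rag (10.1% of those tested) and 751 lower (8.89%). Of these, 260 were at least 2-fold higher (3.08%) and 180 at least 2-fold lower (2.13%). With only these 6 arrays in the fit, 980 genes were called in all. The 3 Art arrays lay wholly above the 3 Rag arrays for 1344 genes (15.9%) and wholly below for 1332 (15.8%). These shares are the background against which the counts below are read, and the median difference over all genes was -0.01.

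The targeted and sex-linked genes were read as checks of the labels. Rag1 was bright on every array, at 12.41, 12.88 and 12.86 in Rag cells and 11.56, 11.18 and 11.37 in Art cells. Rag2, the partner subunit, read 7.10, 7.33 and 7.99 in Rag cells and was detected on no Art array. The sources used here do not place these probes inside or outside the deletions, so their levels check neither label. Xist, the RNA of the inactive X chromosome, was detected on all 3 Art arrays (11.31, 10.47 and 10.74) and on no Rag array. Eif2s3y, a Y-linked translation factor gene, was detected on all 3 Rag arrays (10.94, 10.92 and 11.12) and on no Art array. Sex-linked signal and genotype therefore cannot be told apart within these 6 arrays. Among the withdrawn Art:Nfkb2 arrays, array 3 carried the Y-linked signal (Eif2s3y 10.49, Xist 4.78) and arrays 1 and 2 did not. Its value is given below for some of the leading genes only, with the reservation that it also differs from Art cells in Nfkb2. Whether the differences go with sex was not tested. Outside chromosome Y, the share of genes called ran from 15.4% on chromosome 18 to 23.7% on chromosome 10. It was 18.6% on chromosome X and 18.2% on chromosome 2, which carries Rag1. On chromosome 13, 18 genes were higher and 46 lower.

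Markers of the labelled cell type were present in both groups. Of 10 tested pre-B markers, 9 were detected on all 6 arrays. Cd79b, a signalling chain of the B-cell receptor, read 15.67, 15.63 and 15.71 in Art and 15.75, 15.81 and 15.82 in Rag cells. Cd79a, its partner, read 14.44 to 14.57 against 14.71 to 14.82, and neither was called (adjusted p = 0.259 and 0.106 in limma). Of 11 tested myeloid markers, 0 were called in either direction by limma (0 also at an unadjusted p below 0.05), 5 were detected on none of the 6 arrays, and their summed linear signal was 1315 to 1511 in Art and 716 to 2946 in Rag cells. Of 3 tested mature B markers 1 was higher (Fcer2a, below), and of 2 early progenitor markers 1 was lower (Sox4, below). No marker of plasma, dendritic, T, NK or stromal cells was called either (1 stromal marker was lower at an unadjusted p below 0.05), although only 1 or 2 markers of each were bright enough to test, and none of erythroid or mast cells was. In bulk RNA, fewer cells of a type and less RNA per cell cannot be told apart.

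Targets of p53 formed one of the groups with the most genes above Rag cells. Of 24 tested targets that arrest the cell cycle or feed back on p53, 10 were higher and 2 lower, with a median difference of 0.48. Of 15 tested targets that promote cell death, 11 were higher and 0 lower, with a median of 0.93. The remaining list, of repair and metabolism, was mixed, with 5 higher and 3 lower of 13 and a median of 0.03.

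The arrest genes were led by Phlda3, which blocks the survival kinase Akt at the membrane. It read 12.89, 12.56 and 13.02 on the Art arrays and 9.96, 10.61 and 9.91 on the Rag arrays, a difference of 2.66 ± 0.17 (SE, limma adjusted p = 6.68e-08). Next came Cdkn1a, which encodes p21, a brake on cyclin-dependent kinases. It read 13.87, 13.76 and 13.98 against 10.94, 12.19 and 10.94. The Art arrays sat close together at the top, while Rag array 2 stood above the other Rag arrays for both genes without reaching the Art range. Psrc1, a microtubule-binding p53 target, read 9.78, 9.48 and 9.97 against 7.05, 7.64 and 7.21, a difference of 2.44 ± 0.18 (adjusted p = 2.14e-07). Zmat3, an RNA-binding regulator of splicing, read 12.96 to 13.13 against 10.96 to 11.40. Ccng1, the cyclin G1 gene that restrains p53 through MDM2, read 14.07, 14.17 and 14.18 against 12.17, 12.47 and 12.18, which is 3.66-fold higher. Sesn2, a stress-induced brake on the growth kinase mTORC1, differed by 1.06 ± 0.20 (adjusted p = 0.00127). Ddit4, another brake on mTORC1, differed by 1.34 ± 0.19 (adjusted p = 0.000128). The feedback inhibitors moved less. Mdm2, the ligase that degrades p53, differed by 0.60 ± 0.10 (adjusted p = 0.000589) and Ppm1d, a phosphatase that switches off damage signalling, by 0.54 ± 0.10 (adjusted p = 0.00117). Against the direction of the list, Gadd45a, a stress sensor, read 10.54, 10.43 and 10.55 in Art and 11.81, 11.995 and 11.82 in Rag cells. The Y-positive Art:Nfkb2 array read 12.84 for Phlda3, 13.83 for Cdkn1a, 9.60 for Psrc1 and 10.52 for Gadd45a, each inside or next to the Art range and outside the Rag range.

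Death genes were higher across several routes. Fas, the death receptor, read 9.27, 9.22 and 9.09 in Art and 7.03, 7.11 and 6.54 in Rag cells, 4.93-fold higher by its brighter probe, while its other probe gave a smaller difference of 1.58. Bbc3, which encodes the BCL2 antagonist Puma, read 13.96, 13.89 and 14.05 against 12.28, 12.75 and 12.30. Pmaip1, which encodes Noxa, read 9.38, 9.03 and 9.34 against 7.27, 7.90 and 7.33. Both killers were bright or moderate on every array, and their groups did not overlap. Tnfrsf18, the TNF receptor GITR, differed by 1.46 ± 0.15 (limma adjusted p = 4.89e-06). Aen, an exonuclease induced by p53, differed by 1.37 ± 0.17 (adjusted p = 3.6e-05), and Pidd1, the scaffold that activates caspase 2, by 1.35 ± 0.17 (adjusted p = 4.86e-05). Bcl2l11, which encodes the death promoter Bim, was nearly the same on the 3 Art arrays (12.95, 12.94 and 12.94) and lower on all Rag arrays (12.06, 12.09 and 11.89). Bcl2l1, which encodes the survival protein Bcl-xL, went the other way, at 8.84, 8.86 and 8.99 against 9.59, 10.00 and 10.12.

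The repair and metabolism targets split by gene. Ercc5, an endonuclease of nucleotide excision repair, read 11.92, 11.89 and 11.95 in Art and 10.38, 10.10 and 10.58 in Rag cells. Polk, a DNA polymerase that copies past lesions, read 9.82 to 10.10 against 8.52 to 8.91. Mgmt, which removes alkyl groups from guanine, was detected on all Art arrays (6.79, 7.12 and 7.64) and on no Rag array, at least 1.80-fold higher. Aldh4a1, a mitochondrial enzyme of proline breakdown, differed by 1.11 ± 0.12 (limma adjusted p = 1.15e-05). Lpin1, a phosphatase of lipid synthesis, differed by 1.20 ± 0.22 (adjusted p = 0.00127). The 3 lower members were Rrm2b, a ribonucleotide reductase subunit, at -0.98, Xpc, a sensor of DNA lesions, at -0.86, and the lipid kinase gene Dgka at -0.55. Trp63, a relative of p53, was detected on all 3 Art arrays (8.07, 6.70 and 6.44) and on no Rag array. Its Art arrays spread more widely than those of the other genes here, and it was at least 1.66-fold higher. The deposited series matrix, taken to log2 with a floor under its lowest values, gave a larger difference for Trp63, 3.57, in place of 2.25. Since no Rag array detected Trp63, its size depends on that treatment.

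The genes that sense and signal breaks, in contrast to the p53 targets, were hardly called. Of 17 tested genes of damage signalling, 1 was higher and 0 lower, with a median of 0.05. The exception was Parp1, which marks broken ends with poly(ADP-ribose), at 0.49 ± 0.11 (limma adjusted p = 0.00375). Atm, the kinase of the break response, read 10.33, 9.32 and 9.80 against 9.99, 9.24 and 10.20, so its groups overlapped. Among 12 tested genes of V(D)J recombination and end joining, 1 was higher and 4 lower. Besides Rag1 and Rag2, the lower members included Xrcc6, which encodes the end-binding protein Ku70, at 14.48, 14.51 and 14.44 in Art against 14.99, 15.55 and 15.57 in Rag cells.

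**Figure D1:**
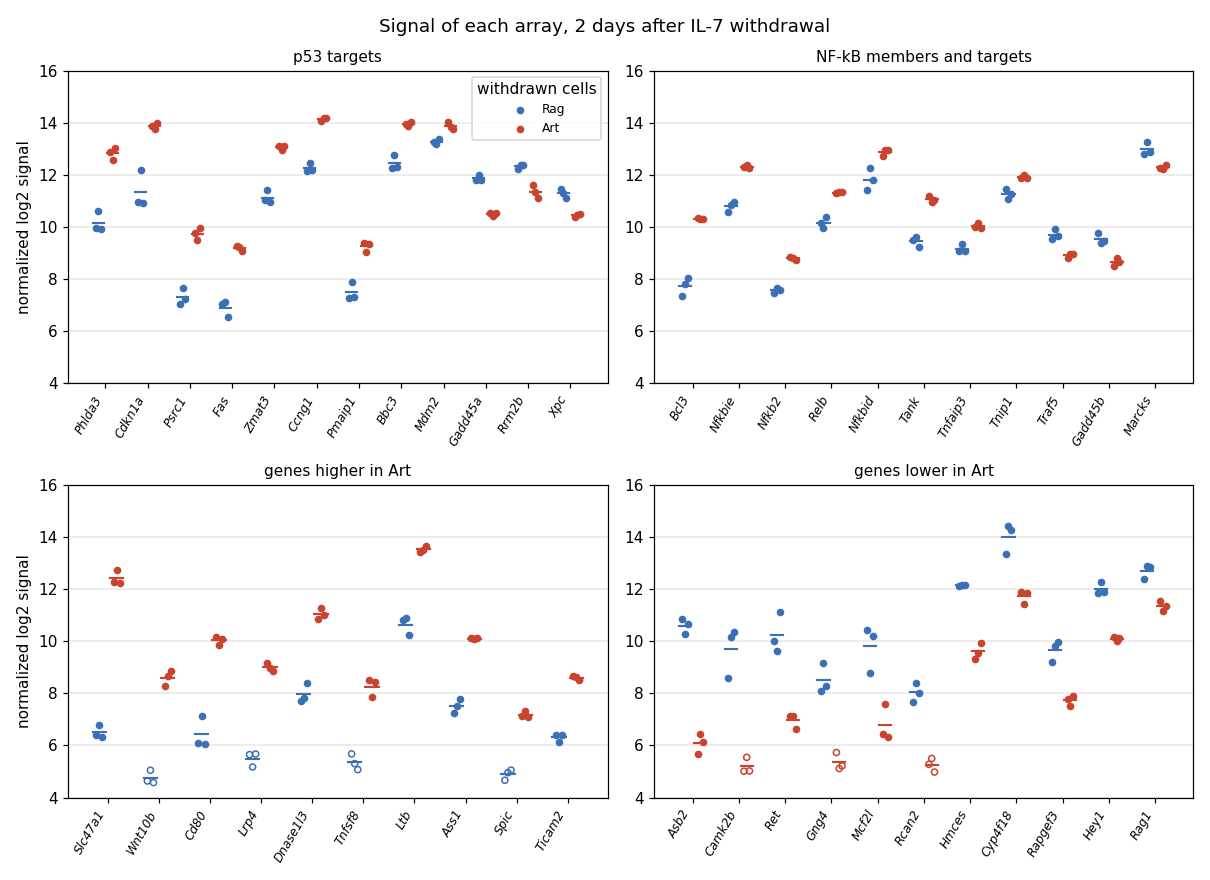
Normalized log2 signal (vertical axes) of the 3 Rag arrays (blue) and the 3 Art arrays (red) 2 days after withdrawal, for p53 targets, NF-kB members and targets, and genes far higher or lower in Art cells. Short lines are group means and open circles mark groups in which the gene was detected on no array. The Art and Rag points of each gene shown do not overlap, and Gadd45a, Rrm2b, Xpc, Traf5, Gadd45b and Marcks lie lower in Art.

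The NF-kB pathway was another group with many genes above Rag cells. NF-kB dimers are held in the cytoplasm by IkB inhibitors, released when IkB kinases are activated, and bind the kappaB motif, including in the promoters of their own subunits and inhibitors. Of 10 tested subunits and inhibitors, 8 were higher and 0 lower, with a median of 0.82. Of 32 tested target genes, 16 were higher and 4 lower, and the median was 0.50, or 0.43 when genes undetected in a group stand at their bound. Of 21 tested upstream regulators, 7 were higher and 2 lower, with a median of 0.14.

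Promoters of the called NF-kB members were searched because the pathway acts through a known motif. The table of RefSeq promoters (build GRCm38.p6) gave at least 1 window for 25 of the 30 genes called higher in the 3 NF-kB lists. The 250 bases before each start were searched on both strands for the kappaB consensus, a motif of 10 bases. It stood in 11 of those 25 genes and in 14 of their 34 windows (41.2%), against 372 of 8270 windows of all genes tested (4.5%). The 11 genes were Bcl10, Ebi3, Irf1, Ltb, Nfkb2, Nfkbia, Nfkbid, Nfkbie, Tank, Tnfaip3 and Tnip1. The calls of Bcl10 and Nfkbia did not hold under every alternative (adjusted p up to 0.0554 and 0.149, limma). Since the lists were drawn up from knowledge of NF-kB regulation, such promoters could be in them for that reason, and a match is a run of letters, not a measured binding site. Of these, 4 are shown, for a subunit, an inhibitor, a cytokine and a regulator, with matches in capitals and overlapping matches joined into 1 place. They lie at chr19:46304487-46304736 on the plus strand (Nfkb2), chr17:45555450-45555699 plus (Nfkbie), chr17:35194257-35194506 plus (Ltb) and chr11:54962941-54963190 minus (Tnip1), each read 5′ to 3′ towards the gene.
Nfkb2: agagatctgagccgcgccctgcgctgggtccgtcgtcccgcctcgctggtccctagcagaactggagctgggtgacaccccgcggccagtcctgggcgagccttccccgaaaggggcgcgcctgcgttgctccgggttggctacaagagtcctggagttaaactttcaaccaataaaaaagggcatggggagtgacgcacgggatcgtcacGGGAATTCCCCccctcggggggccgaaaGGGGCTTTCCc
Nfkbie: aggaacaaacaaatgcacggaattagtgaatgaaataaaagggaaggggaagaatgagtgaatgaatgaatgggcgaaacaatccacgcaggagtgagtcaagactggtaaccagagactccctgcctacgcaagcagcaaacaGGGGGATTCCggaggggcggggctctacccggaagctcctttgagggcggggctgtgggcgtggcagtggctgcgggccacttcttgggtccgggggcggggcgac
Ltb: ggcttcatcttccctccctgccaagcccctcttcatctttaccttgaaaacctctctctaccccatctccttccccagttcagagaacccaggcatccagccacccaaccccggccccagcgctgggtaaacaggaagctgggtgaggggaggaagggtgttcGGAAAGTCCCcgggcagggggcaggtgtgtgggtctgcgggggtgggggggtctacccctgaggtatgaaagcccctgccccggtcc
Tnip1: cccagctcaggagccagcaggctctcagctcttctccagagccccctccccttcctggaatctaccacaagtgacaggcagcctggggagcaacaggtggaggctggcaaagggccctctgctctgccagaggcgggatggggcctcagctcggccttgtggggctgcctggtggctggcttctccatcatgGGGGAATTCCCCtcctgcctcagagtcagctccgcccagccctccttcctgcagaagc
The Nfkb2 window holds the motif in 2 places, the nearer one 2 bases before the start. The same search for the p53 element, which is a pair of 10-base elements up to 13 bases apart, found it in 1 of the 24 genes with a window among the 26 called higher in the 3 p53 lists. That gene was Cdkn1a, at chr17:29090729-29090978 plus, before one of its annotated starts. The element stood in 1 of the 33 windows of those 24 genes (3.03%), against 4 of 8270 windows of all genes tested (0.0484%).
Cdkn1a: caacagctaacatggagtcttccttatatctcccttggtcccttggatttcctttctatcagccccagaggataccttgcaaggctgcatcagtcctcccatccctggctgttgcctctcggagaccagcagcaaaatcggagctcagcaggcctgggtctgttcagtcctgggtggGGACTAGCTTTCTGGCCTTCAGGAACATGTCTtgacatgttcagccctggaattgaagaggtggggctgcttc

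Bcl3, an atypical IkB protein that works as a cofactor of p50 and p52 in the nucleus, differed most among the subunits and inhibitors. It read 10.32 on each of the 3 Art arrays and 7.34, 7.79 and 8.02 on the Rag arrays. Nfkb2, whose kappaB matches are shown above, read 8.84, 8.81 and 8.74 against 7.47, 7.64 and 7.57. Relb, the partner of the Nfkb2 product p52 in the noncanonical pathway, read 11.29, 11.35 and 11.33 against 10.15, 9.97 and 10.37. For all 3 genes the Art arrays varied less than the Rag arrays, and the groups were far apart. Nfkbie, which encodes the inhibitor IkB epsilon, read 12.29, 12.36 and 12.25 against 10.59, 10.83 and 10.95, a difference of 1.51 ± 0.12 (limma adjusted p = 5.15e-07). Nfkbid, a nuclear IkB, differed by 1.06 ± 0.17 (adjusted p = 0.000367) and Nfkbib, which encodes IkB beta, by 0.59 ± 0.09 (adjusted p = 0.000162). The DNA-binding subunit gene Rel differed by 0.48 ± 0.19 and was not called (adjusted p = 0.0895), and the nuclear IkB gene Nfkbiz differed by 0.11. The Y-positive Art:Nfkb2 array read 10.53 for Bcl3, 12.06 for Nfkbie and 11.24 for Relb, above every Rag array.

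Regulators upstream and in feedback were partly higher. Tank, an adaptor of TRAF signalling, read 11.18, 10.95 and 11.05 in Art and 9.48, 9.60 and 9.24 in Rag cells. Traf1, an adaptor of TNF receptors and itself an NF-kB target, was detected on all Art arrays (6.69, 6.60 and 6.49) and on no Rag array. Its bound is low, at least 1.20-fold, because its signal lies close to the detection limit. Tnfaip3, the A20 enzyme that shuts off NF-kB signalling, read 9.99, 10.16 and 9.96 against 9.06, 9.33 and 9.08. Its partner Tnip1 differed by 0.64 ± 0.12 by the brighter probe (limma adjusted p = 0.0011) and by 0.37 by the other. Traf5, another TRAF adaptor, was lower, at 8.82, 8.94 and 8.98 against 9.54, 9.92 and 9.64. Map3k14, the NIK kinase of the noncanonical pathway, had overlapping groups and a difference of -0.10.

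The widest differences among target genes were those of Cd80 (3.61, given below), Ltb (2.89) and Fas (2.30, given above). Ltb, which encodes lymphotoxin beta, read 13.43, 13.50 and 13.68 in Art and 10.82, 10.89 and 10.24 in Rag cells. Slc2a6, a lysosomal hexose transporter gene, read 11.41, 11.31 and 10.96 against 8.79, 9.30 and 9.53, 4.06-fold higher. Pim2, a survival kinase gene on chromosome X, read 10.86, 10.88 and 11.10 against 8.24, 9.36 and 8.64. Icam1, an adhesion molecule, read 11.26 to 11.60 against 10.51 to 10.83, a smaller difference of 0.81 ± 0.11 (limma adjusted p = 7.23e-05). Ebi3, a subunit of the cytokines IL-27 and IL-35, was detected on the 3 Art arrays and on no Rag array, at least 1.33-fold higher. Plek, which encodes pleckstrin of membrane signalling, differed by 1.44 ± 0.25 (adjusted p = 0.000693). Besides Bcl2l1, the lower targets included Gadd45b, a stress sensor, at 8.51, 8.80 and 8.66 against 9.75, 9.40 and 9.46, and Marcks, a membrane-bound substrate of protein kinase C, at -0.70 ± 0.12 (adjusted p = 0.000872). The remaining lower target was Pim1, a relative of Pim2, at -0.72.

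**Figure D2:**
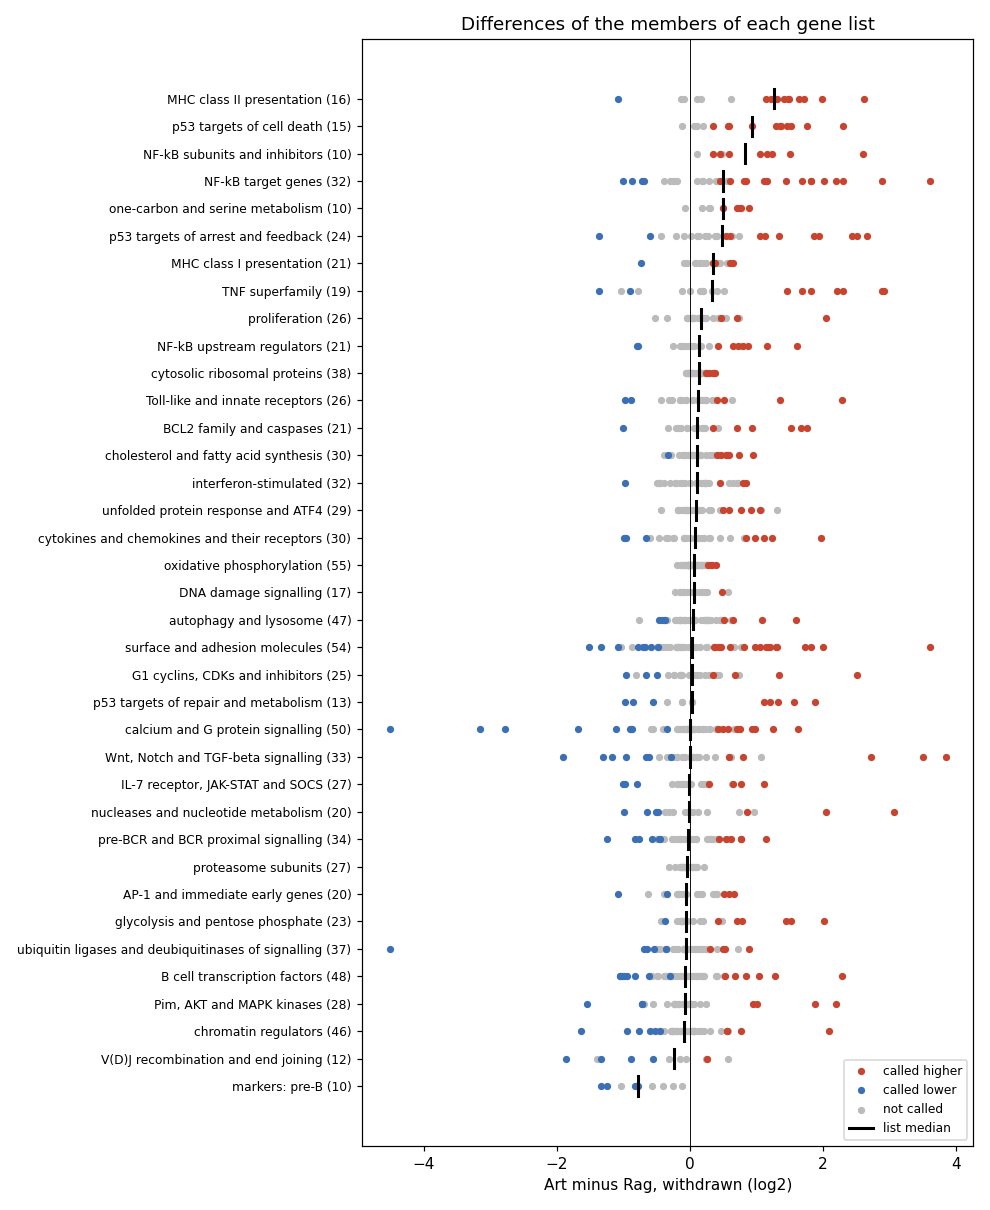
Art minus Rag log2 difference in withdrawn cells (horizontal axis) of each tested member of each gene list shown, with the number tested in brackets, ordered by the list median (black line). Red points were called higher, blue points lower and grey points were not called. MHC class II, p53 death targets and NF-kB subunits have the 3 highest medians, and the pre-B markers the lowest.

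The TNF family overlaps with these lists. Of 19 tested TNF ligands and receptors, 7 were higher and 2 lower, and the median was 0.33 (0.20 with genes undetected in a group at their bound). Tnfsf8, the ligand of CD30, was detected on every Art array (8.50, 7.86 and 8.42) and on no Rag array, at least 3.80-fold higher. Tnfsf4, the OX40 ligand, was detected on 2 of 3 Art arrays and on no Rag array, at least 1.54-fold higher. For Tnfsf4 the series matrix gave a difference of 4.35 in place of 2.22. Cd40, the receptor of T-cell help, read 13.15, 13.64 and 13.79 against 12.07, 11.40 and 11.65. Tnfrsf21, the death receptor DR6, was lower, at 6.86, 7.35 and 6.80 against 8.11, 8.49 and 8.50. Tnfrsf12a, the receptor of TWEAK, was also lower, by -0.90 ± 0.19 (limma adjusted p = 0.00267). Tnfrsf13c, the BAFF receptor gene, had overlapping groups (difference 0.33, adjusted p = 0.238).

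Of 54 tested surface and adhesion molecules 17 were higher and 8 lower, with a median of 0.04. Cd80, the ligand of CD28 on T cells, read 10.18, 9.85 and 10.09 in Art cells and was detected on 1 of 3 Rag arrays (6.09, 7.14 and 6.05). Cd83, a maturation marker, read 11.02, 11.14 and 10.91 against 9.42, 8.98 and 9.21. Cd52, a small glycoprotein of lymphocytes, was among the brightest genes on the Art arrays, at 15.42, 15.46 and 15.32 against 13.75, 13.46 and 13.81. Fcer2a, the low-affinity IgE receptor CD23 of mature B cells, was detected on all Art arrays (7.08, 7.64 and 7.67) and on no Rag array, at least 2.19-fold higher. Cd274, the checkpoint ligand PD-L1, read 9.79, 9.62 and 9.77 against 8.26, 8.91 and 8.37. Cd81, a tetraspanin, differed by 1.18 ± 0.11 (limma adjusted p = 1.72e-06). Cxcr5, the follicle homing receptor, differed by 0.84 ± 0.17 (adjusted p = 0.00196), but by 0.34 with its other probe. The Y-positive Art:Nfkb2 array read 10.04 for Cd80, 11.23 for Cd83 and 15.42 for Cd52, all above the Rag arrays. Lower in Art cells were the integrin gene Itga6, detected on all Rag arrays (7.31, 6.43 and 7.70) and on no Art array, and Cd2, an adhesion molecule of B-cell precursors, at 10.66, 11.22 and 10.59 against 11.97, 11.67 and 12.07. The early B-cell marker Cd93 was lower too, at 11.86, 11.44 and 11.80 against 12.50, 12.56 and 12.39.

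Genes of antigen presentation by MHC class II, which shows peptides to helper T cells, had the highest list median. Of 16 tested, 10 were higher and 1 lower, with a median of 1.27. H2-DMa and H2-DMb2 encode chains of the peptide-loading molecule H2-M. H2-DMb2 read 9.98, 10.17 and 9.90 in Art and 8.49, 8.22 and 7.41 in Rag cells, and H2-DMa read 11.43, 11.78 and 11.50 against 9.88, 9.95 and 9.95. H2-Eb1, a class II beta chain, read 13.02, 13.34 and 12.997 against 11.46, 11.29 and 11.49. H2-Oa, a chain of the loading inhibitor H2-O, read 10.61, 10.85 and 10.90 against 9.14, 9.42 and 9.34. Cd74, the invariant chain, was close to the top of the scale, at 15.33, 15.35 and 15.19 against 14.22, 13.70 and 14.03. Ifi30, a lysosomal reductase that prepares antigens, had a wide spread in Rag cells (11.95, 9.56 and 9.75), with array 1 nearest to the Art values of 12.71, 13.23 and 13.19. The lower member was Rfxank, a subunit of the RFX complex that binds class II promoters, at 6.73, 6.78 and 6.61 against 7.40, 7.95 and 8.02. Myeloid cells also carry class II genes. Their markers were not called, as given above, but only 2 of the 11 tested were detected on all 6 arrays. A part of myeloid cells in the class II difference was therefore not tested. The class I list had 5 of 21 higher and 1 lower, and the lower gene was Nlrc5, the transactivator of class I genes, at -0.73 ± 0.14 (limma adjusted p = 0.0011).

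Transcription factors of the B lineage went both ways, with 6 of 48 higher and 8 lower and a median of -0.07. Spic, an ETS factor related to PU.1, read 7.15, 7.31 and 7.09 in Art cells and was detected on no Rag array. Batf, an AP-1 partner of activated lymphocytes, read 9.06, 9.27 and 9.17 against 7.88, 8.12 and 7.67. Bcl6, a repressor of germinal centre and pre-B cells, differed by 0.53 ± 0.11 (limma adjusted p = 0.00223), and Bcl11a, a factor needed for B-cell development, by 0.84 ± 0.13 (adjusted p = 0.000211). Spib, another PU.1 relative, differed by 0.68 ± 0.12 (adjusted p = 0.000893). PU.1 itself, Spi1, had overlapping groups (9.11, 9.26 and 9.41 against 9.19, 9.30 and 9.43). The lower factors included 3 Kruppel-like factors. Klf2, which keeps lymphocytes quiescent, read 12.47, 12.68 and 12.61 against 13.84, 13.54 and 13.52. Klf3, a transcriptional repressor, was lower by -0.99 ± 0.19 (adjusted p = 0.00166) and Klf4, a growth-restraining factor of B cells, by -1.05 ± 0.20 (adjusted p = 0.00131). Klf4 was detected on 1 of 3 Art arrays, so the size of its difference is uncertain. Sox4, a factor of early B-cell survival, read 7.34, 7.78 and 7.63 against 8.66, 8.53 and 8.64. Ebf1, which sets up the B-cell programme, read 10.88, 10.33 and 10.50 against 11.53, 11.07 and 11.60. Irf4, a factor of light-chain recombination, did not pass the test, at -0.30 ± 0.12 (adjusted p = 0.107), and Pax5 had overlapping groups.

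Of the 10 pre-B markers tested, 5 were lower and 0 higher, with a median of -0.79, and all 3 Art arrays lay below Rag for 7 of them. The lower ones were Cd93, Ebf1 and Rag1, given above, with Vpreb1 and Il7r. Vpreb1, a chain of the surrogate light chain, read 10.92, 11.09 and 11.77 against 12.19, 12.54 and 12.78. Vpreb3, a chaperone related to it, was bright in both groups and lower in Art cells, at 14.77, 14.79 and 15.09 against 15.53, 15.75 and 15.69. Il7r, the IL-7 receptor chain, read 12.51, 12.03 and 12.06 against 12.61, 13.27 and 13.09, so that Art array 1 came close to Rag array 1. Its call was lost with only the 6 arrays of the comparison in the fit (adjusted p = 0.0558 in place of 0.00472, limma). In the list of pre-B-receptor signalling 6 of 34 were higher and 6 lower, with a median of -0.03. Swap70, a B-cell signalling adaptor, read 12.78, 12.56 and 12.46 against 11.82, 11.11 and 11.44, and Ptpn6, the phosphatase SHP-1, differed by 0.76 ± 0.14 (adjusted p = 0.0011). Prkcb, a protein kinase C that couples the receptor to NF-kB, was lower, at 13.27, 13.26 and 12.99 against 14.09, 13.64 and 14.25.

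In the list of the IL-7 receptor, JAK kinases and SOCS inhibitors 4 of 27 were higher and 3 lower. In that of cytokines, chemokines and their receptors 5 of 30 were higher and 3 lower, with a median of 0.08. Jak3, the kinase bound to the receptor's common gamma chain, read 10.84, 10.81 and 10.78 in Art and 10.06, 9.23 and 9.79 in Rag cells. Socs2, a feedback inhibitor induced by STAT5, read 10.34, 10.53 and 10.35 against 11.28, 11.49 and 11.39. Il27ra, the receptor chain for IL-27, read 10.35, 10.61 and 10.46 against 8.0025, 8.82 and 8.68. Il12a, the p35 subunit of IL-12 and IL-35, read 12.76, 12.84 and 13.0006 against 11.21, 11.98 and 11.71, so Art cells were higher for this subunit as well as for its partner Ebi3.

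Some of the lowest genes in Art cells belong to calcium, cyclic nucleotide and G-protein signalling, although that list as a whole had 9 of 50 higher and 9 lower with a median of 0.00. Camk2b, a calcium and calmodulin dependent kinase, read 8.58, 10.18 and 10.35 in Rag cells and was detected on no Art array, at least 10.2-fold lower. Gng4, a G-protein gamma subunit, read 8.10, 9.19 and 8.27 in Rag cells and was detected on no Art array, at least 4.49-fold lower. Rcan2, an inhibitor of the phosphatase calcineurin, read 7.68, 8.42 and 8.01 in Rag cells and was detected on no Art array. Its relative Rcan3 was higher, by 0.93 ± 0.13 (limma adjusted p = 7.51e-05). Rapgef3, the cyclic AMP sensor EPAC1, read 7.78, 7.53 and 7.92 against 9.22, 9.83 and 9.98. Pde2a, an enzyme that breaks down cyclic nucleotides, read 11.35, 11.27 and 11.11 against 12.83, 12.79 and 13.50. Gna15, a G-protein alpha subunit of blood cells, differed by 0.98 ± 0.14 (adjusted p = 0.000145) and Cnr2, the cannabinoid receptor of B cells, by 2.14 ± 0.17 (adjusted p = 5.15e-07). Sgk1, a kinase related to Akt, was lower, at 11.56, 11.16 and 11.27 against 12.57, 13.17 and 12.91.

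Wnt, Notch and TGF-beta genes were likewise split, with 5 of 33 higher and 7 lower. Wnt10b, a secreted Wnt ligand, read 8.28, 8.67 and 8.85 in Art cells, and its relative Wnt10a read 7.66, 8.65 and 8.18. Neither was detected on a Rag array, which makes them at least 4.81-fold and 3.55-fold higher. For Wnt10b the series matrix gave a difference of 6.51 in place of 3.85. Lrp4, a receptor-like protein that binds Wnt inhibitors, read 9.15, 8.98 and 8.86 in Art cells and was detected on no Rag array. Notch1, a receptor of lymphocyte fate, differed by 0.80 ± 0.15 (limma adjusted p = 0.0011). Hey1, a repressor downstream of Notch and BMP signals, was lower, at 10.15, 10.02 and 10.12 against 11.86, 12.26 and 11.91. Smad3, the TGF-beta signal carrier, read 10.07, 9.84 and 10.03 against 11.02, 11.06 and 11.35. Tcf7l2, a nuclear effector of Wnt, was lower by -1.31 ± 0.24 (adjusted p = 0.001).

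Several of the genes with the widest gap belong to no list of regulators. Slc47a1, a transporter of organic cations and drugs, read 12.29, 12.72 and 12.24 in Art and 6.39, 6.78 and 6.34 in Rag cells, the widest gap of any autosomal gene with a symbol. It was detected on 2 of 3 Rag arrays, close to the detection limit, and its size there is uncertain. Its brighter probe gave 60.4-fold and its other probe a difference of 4.18. The Y-positive Art:Nfkb2 array read 11.69 for Slc47a1. Dnase1l3, a secreted nuclease that degrades DNA in microparticles, read 10.87, 11.27 and 11.003 against 7.70, 7.84 and 8.40. Ass1, the argininosuccinate synthase of arginine synthesis, read 10.13, 10.08 and 10.12 against 7.24, 7.51 and 7.77. Il4i1 and Kynu, enzymes of aromatic amino acid breakdown, differed by 2.05 ± 0.31 (limma adjusted p = 0.000232) and 2.10 ± 0.30 (adjusted p = 0.000115). Ticam2, an adaptor of Toll-like receptor 4, read 8.66, 8.65 and 8.51 against 6.41, 6.14 and 6.42, and was detected on 2 of 3 Rag arrays. Hdac4, a class II histone deacetylase, was higher, at 10.66, 10.47 and 10.49 against 8.55, 8.11 and 8.69, while its relative Hdac5 was lower, at 12.74, 12.45 and 12.73 against 13.44, 13.49 and 13.82.

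On the lower side, Asb2, which brings substrates to a ubiquitin ligase, read 5.66, 6.46 and 6.14 in Art and 10.85, 10.28 and 10.66 in Rag cells, and was detected on 1 of 3 Art arrays. Ret, a receptor kinase of neural and blood precursors, read 7.14, 7.12 and 6.64 against 10.01, 9.65 and 11.12. Mcf2l, a guanine nucleotide exchange factor, differed by -3.02 ± 0.57 (limma adjusted p = 0.00136) or -2.08 by its other probe. It was detected on 2 of 3 Art arrays. Hmces, which crosslinks to abasic sites in single-stranded DNA and shields them, read 9.34, 9.55 and 9.95 against 12.15 on each Rag array. Cyp4f18, a cytochrome that hydroxylates fatty acids, read 11.90, 11.43 and 11.87 against 13.35, 14.43 and 14.28. For Asb2, Mcf2l, Hmces and Cyp4f18 the Y-positive Art:Nfkb2 array read 6.56, 6.75, 9.07 and 12.34, below every Rag array. For Ret it read 9.30, also below every Rag array but nearer to them than to the Art arrays. The 3 withdrawn Art:Nfkb2 arrays together, the Y-positive one included, averaged 8.83 for Ret against 6.97 in Art cells. Whether the level of Ret goes with sex or with Nfkb2 was not tested.

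Genes of general cell function varied by list. Of 27 tested proteasome subunits 0 were called (limma), 1 having an unadjusted p below 0.05, and of 55 oxidative phosphorylation subunits 4 were higher and 0 lower. Of 26 proliferation genes 3 were higher and 0 lower, with a median of 0.16. Among them Tk1, a thymidine kinase, was 4.15-fold higher by its brighter probe, at 9.26, 9.03 and 9.29 against 6.68, 7.46 and 7.28, and its other probe gave a difference of 1.36. Of 38 cytosolic ribosomal proteins 6 were higher and 0 lower, with a median of 0.14, and the Art arrays lay wholly above for 15 and below for 1. The number called ran from 0 to 9 over the alternatives. One-carbon and serine genes had 5 of 10 higher and 0 lower, and the median was 0.50 (0.23 with genes undetected in a group at their bound), but as few as 1 called under an alternative. Cholesterol and fatty acid synthesis had 7 of 30 higher and 1 lower, and interferon-stimulated genes 3 of 32 higher and 1 lower. Autophagy and lysosome genes had 4 of 47 higher and 3 lower, below the share over all genes.

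The same genotypes were compared in IL-7, before withdrawal, to see which differences were already there. Here too Xist was detected on all 3 Art arrays and on no Rag array, and Eif2s3y the other way round. Sex-linked signal and genotype therefore cannot be told apart in IL-7 either, or in the change of response below. In IL-7 307 genes were higher (3.63%) and 239 lower (2.83%) in Art cells. With the arrays scaled by their medians only, there were 137 higher and 267 lower, with the median of all genes at -0.15. The total of 546 went down to 361 without Art array 2, 343 without Art array 3 and 314 without Rag array 3. Of the genes called in withdrawn cells 417 were also called in IL-7, which is 25.9% of the withdrawn calls and 76.4% of the IL-7 calls, and all 417 had the same direction. The arrays differ, but those of a genotype with the same number were taken as 1 culture. Features of a shared culture would enter both comparisons. Slc47a1 was detected on all Art and no Rag arrays in IL-7, at least 18-fold higher. Bcl3 already differed by 2.11, Phlda3 by 2.14 and Cd80, detected on 1 of 3 Rag arrays, by 2.66. Of the NF-kB subunits and inhibitors 6 of 10 were higher in IL-7 (median 0.75), of the p53 death targets 8 of 15 (median 0.58) and of the MHC class II genes 4 of 16 (median 0.38). Hey1 differed by -2.37 in IL-7. Camk2b and Ret were detected on no Art array in IL-7, at least 13.5-fold and 6.82-fold lower.

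**Figure D3:**
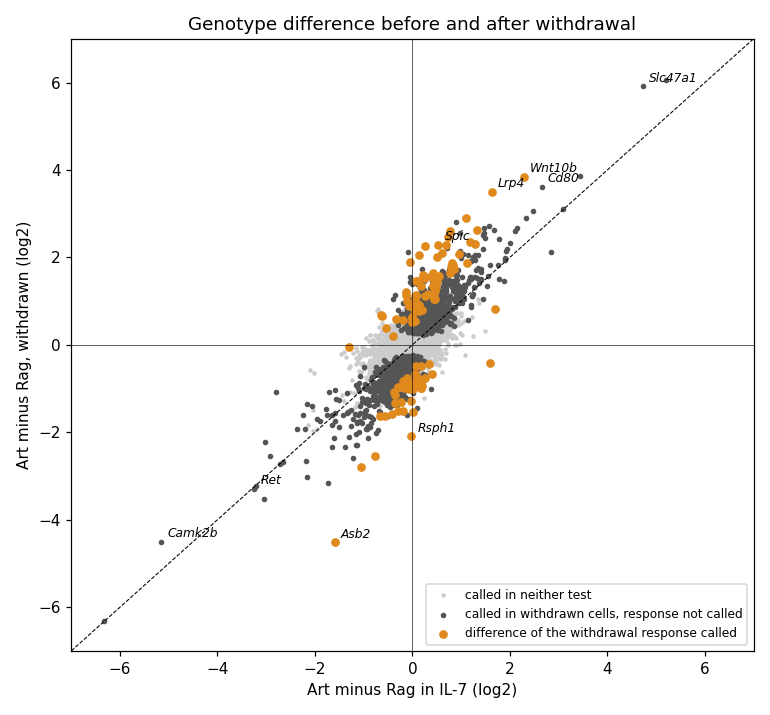
Art minus Rag log2 difference in IL-7 (horizontal axis) against that after withdrawal (vertical axis), 1 point per gene, with the dashed line marking equal differences. Dark points were called in withdrawn cells, and orange points are the 107 genes whose withdrawal response differed between the genotypes. Asb2 and Rsph1 lie far below the dashed line and Spic and Lrp4 above it, while Camk2b and Ret lie near it.

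A test of the change itself asked whether the genotype difference after withdrawal was unlike that in IL-7. It called 107 genes (1.27%), for 66 of which (0.781%) the Art response was the more positive one and for 41 (0.485%) the more negative. With the culture as a fixed block, 363 genes were called, all 107 among them. This block pairs the arrays of a genotype with the same number, in IL-7 and withdrawn, which were taken as 1 culture. Scaling to a common median gave 44 more positive and 13 more negative, with the median of all genes at 0.11. The total was 58 without withdrawn Art array 1, 67 without withdrawn Art array 2, 54 without Art array 3 in IL-7 and 59 without Rag array 3 in IL-7. It was 170 without withdrawn Rag array 1 and 177 without Rag array 1 in IL-7. Of the 29 genes named for this test, 21 were detected in all 4 groups. For the other 8 (Trp63, Mgmt, Lrp4, Tnfsf8, Spic, Wnt10b, Fcer2a and Rcan2) at least 1 group had no detection, so the size of the change depends on the offset and gives no order. Trp63 was detected on no array but the 3 withdrawn Art arrays (fitted change 1.99, limma adjusted p = 0.0205). Tk1 averaged 10.68 in Art and 10.55 in Rag cells with IL-7, and 9.19 and 7.14 without it, a change of 1.92 ± 0.25 (adjusted p = 0.00257). Ass1 changed by 1.84 ± 0.32 (adjusted p = 0.0102). Lrp4 and Spic were also called (fitted changes 1.87 and 1.76, adjusted p = 0.00299 and 0.000653), Spic being detected in withdrawn Art cells only among these 4 groups. Ccnd2, the cyclin D2 gene that IL-7 sustains, read 13.68 in Art and 13.51 in Rag cells with IL-7, and 10.64, 10.99 and 10.53 against 9.55, 9.24 and 9.35 without it. Among p53 targets Fas, Ccng1, Aldh4a1, Tnfrsf18 and Mgmt were called in this test, with changes of 1.02, 0.75, 0.86, 0.94 and 1.94. Among surface and MHC genes Fcer2a, Cd52 and H2-DMa were called, with changes of 1.50, 0.88 and 1.23. The call of Trp63 was lost without withdrawn Rag array 3 (adjusted p = 0.0506), and that of Cd52 without Art or Rag array 3 in IL-7 (adjusted p up to 0.0552). Less firm were Aldh4a1, lost without 6 of the 12 arrays left out in turn, Fas and Tnfrsf18, each lost without 8, and H2-DMa, lost without 11 (adjusted p up to 0.0643, 0.0977, 0.101 and 0.103). With the culture as a block all of these were called.

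In the other direction, Asb2 averaged 9.29 in IL-7 and 10.60 after withdrawal in Rag cells, and 7.70 and 6.09 in Art cells, a change of -2.93 ± 0.48 (limma adjusted p = 0.00788). Rsph1, a component of motile cilia, averaged 12.68 and 12.70 in IL-7, and read 7.57, 7.54 and 8.37 in Art and 10.39, 9.47 and 9.90 in Rag cells after withdrawal. Thbd, the thrombomodulin gene, averaged 8.16 and 8.14 in IL-7 and read 7.37, 7.01 and 7.27 against 8.87, 8.60 and 8.82 without it. Hmces had a change of -1.76 ± 0.25 (adjusted p = 0.00337), and Rcan2, detected on no Art array at either time, a fitted change of -1.73 (adjusted p = 0.00747). Bcl2l1, Cd93 and Vpreb3 showed no call in IL-7 (differences of 0.01, 0.10 and -0.12) and had changes of -1.02, -0.88 and -0.65. Socs2 changed by -0.81 ± 0.14 (adjusted p = 0.0103) and E2f2, a transcription factor of cell-cycle entry and its restraint, by -0.84 ± 0.16 (adjusted p = 0.0191). The call of E2f2 was lost without withdrawn Art array 1 or Rag array 3 in IL-7 (adjusted p up to 0.0605). Vpreb3, Cd93 and Bcl2l1 lost theirs without 8, 9 and 10 of the 12 arrays left out in turn (adjusted p up to 0.096, 0.101 and 0.108), and were called with the culture as a block. Cdkn1a had a change of 1.07 that was not called (adjusted p = 0.196), but was called with the culture as a fixed or random block (adjusted p = 0.0291 and 0.0385). The changes of Bcl3 (0.49, adjusted p = 0.326) and Nfkb2 (0.20, adjusted p = 0.677) were not called either way (adjusted p of 0.203 and 0.346 with the fixed block, 0.133 and 0.393 with the random block).

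**Figure D4:**
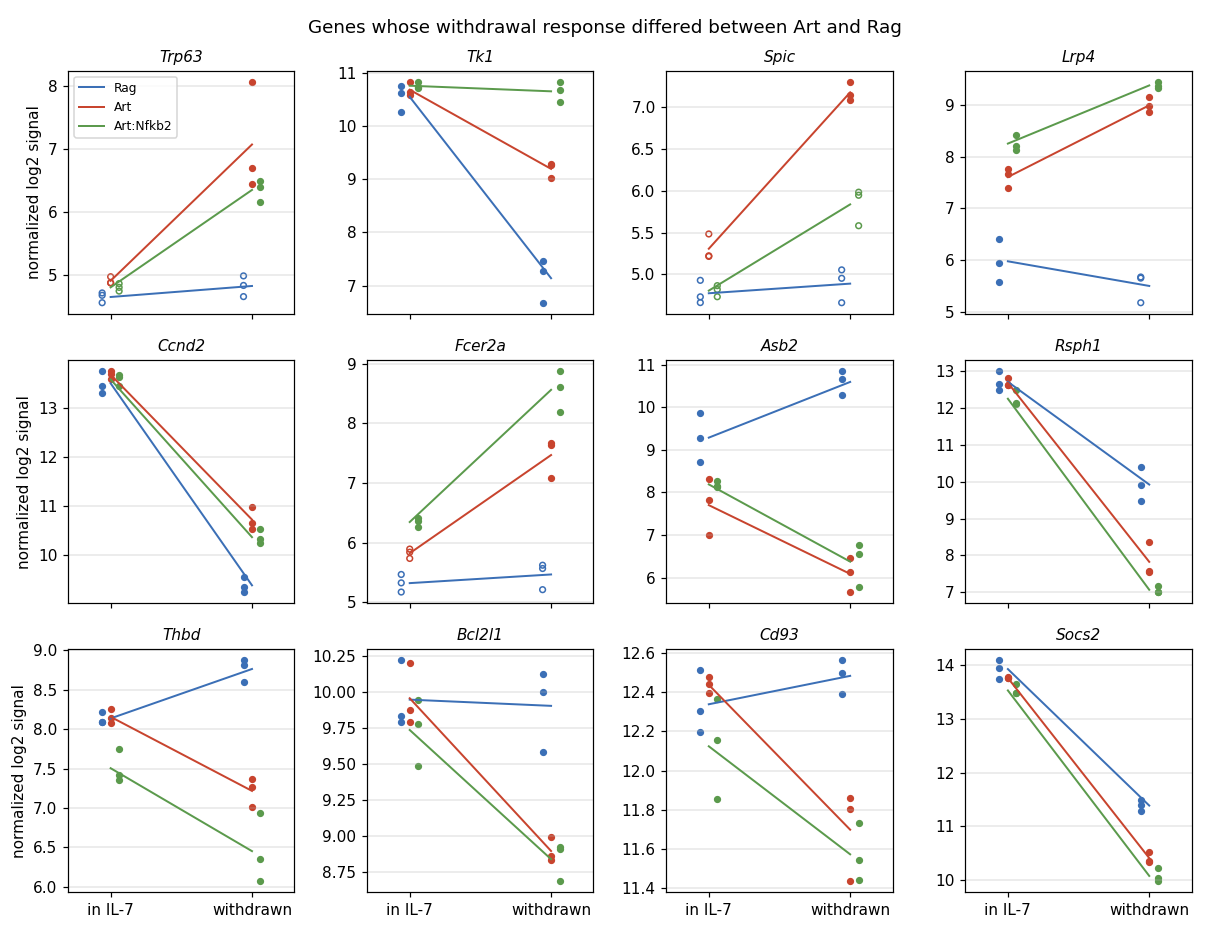
Normalized log2 signal (vertical axes, each gene on its own scale) of every array in IL-7 and 2 days after withdrawal, for Rag (blue), Art (red) and Art:Nfkb2 (green) cultures. Lines join group means and open circles mark groups in which the gene was detected on no array. In IL-7 Rag and Art lie close together for Rsph1, Thbd, Bcl2l1 and Cd93, and after withdrawal they are apart.

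The withdrawn Art:Nfkb2 arrays show where some leading genes stood when Nfkb2 was also lost by label. Nfkb2 itself was detected on all 3 of these arrays, at a mean of 9.21 against 8.80 in Art cells. The sources used here do not place its probe inside or outside the deletion, so this level does not check the label. The Art arrays serve in both comparisons, so the values are given side by side only. The test of Art:Nfkb2 against Art called 337 genes (3.99%), 150 higher (1.78%) and 187 lower (2.21%), or 155 and 119 with arrays scaled to a common median. Without withdrawn Art array 3 it called 215. Spic read 5.95, 5.58 and 5.99 in Art:Nfkb2 cells, undetected on all 3, and was at least 1.85-fold lower than in Art cells (limma adjusted p = 1.12e-05). Wnt10b read 7.72, 7.69 and 7.40, -0.998 ± 0.15 from Art (adjusted p = 0.000747), and Il4i1 11.07, 11.21 and 11.02, -1.53 ± 0.31 (adjusted p = 0.00884). Cdkn1a, Bbc3, Cd80 and Slc47a1 were not called, at differences of -0.07, -0.12, -0.06 and -0.42. H2-Eb1 and H2-DMb2 were higher still than in Art cells, by 1.09 ± 0.23 (adjusted p = 0.0124) and 1.29 ± 0.27 (adjusted p = 0.00975), as was Fcer2a by 1.09 ± 0.18 (adjusted p = 0.00124). Camk2b was detected on all 3 Art:Nfkb2 arrays (7.58, 7.81 and 8.30, the last on the Y-positive array), between the Art and Rag values. Vpreb1 was lower again, at 9.38, 9.58 and 10.28, -1.51 ± 0.23 from Art (adjusted p = 0.000874).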

How the data were processed

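RNA was hybridised to 1-colour Illumina MouseRef-8 arrays. Per the file headers, the deposited table gives each probe's intensity, not normalized, and its detection p-value on each array. A further set of probe intensities, the deposited series matrix, is linear, background-subtracted (29.5% to 29.7% below 0) and in the same rank order as the first on each array, with column medians of 19.99 to 20.29. Steps that made it: not given in the sources used here. Partek and GenomeStudio are named in the submitters' processing notes, without a version. Median raw intensity was 129.3 to 163 per array; columns of per-sample values not used numbered 0. The number of arrays limits the precision.

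From the deposited intensities, limma 3.58.1 in R 4.3.3 made normalized log2 values with neqc (normexp background by detection p-values, quantile normalization, offset 16). The offset understates differences of dim genes. Series matrix values were taken to log2 with the same offset and a floor. Their sizes for genes with undetected arrays, such as Trp63, Tnfsf4 and Wnt10b, depend on both. Of 25697 probes, 11356 were kept, those detected at p below 0.01 on 3 or more arrays. The brightest probe stood for each gene, giving 8446 entries, 673 of them known by probe only. Of all probes 23978 had 1 symbol, 0 several and 1719 none.

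One linear model of the 6 groups over all 18 arrays gave each comparison (lmFit, eBayes, two-sided, Benjamini-Hochberg over all genes, threshold 0.05). Where a group detected a gene nowhere, its fold is a bound, written "at least". The brighter mean is then set against the dim arrays' mean, each array taken at its own value or at its lowest detected signal, whichever is higher. The procedure was tested on simulated data. Alternatives were the arrays in the fit, normalization, source, offset, filters, the probe rule, blocks, eBayes options, leaving out each array, and leaving out chromosomes X and Y or 2.

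Groups and numbers came from the sample titles. The design text calls the cultures independent, and no slide was named, so slide could not be tested. Same-numbered withdrawn Art and Rag arrays had deviations correlated at 0.04, -0.15 and -0.11, so the number pairs nothing between genotypes. Arrays of a genotype with the same number, in IL-7 and withdrawn, were taken as the 2 arrays of a culture, since the titles give only the number. They did deviate together (0.37 to 0.47 in Art, 0.42 to 0.55 in Rag).

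Members, gene lists and the naming rule were chosen with earlier results of these data known. Genes named are the targeted and sex-linked genes, the 40 widest differences per direction among called genes without overlap, the 15 widest changes of response per direction and members of the lists, leaving out the 10 per direction nearest to the threshold. Promoters came from RefSeq (GRCm38.p6). Dclre1c, the Artemis gene, was not analysed here.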

Additional observations from a re-analysis of the deposited data

Results flagged for a closer look

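These genes were singled out because the Art minus Rag difference itself changed between cells in IL-7 and withdrawn cells, by the test of that change (limma adjusted p below 0.05). Each value is the fitted log2 change of the difference. For Trp63, Mgmt, Lrp4, Tnfsf8, Spic, Wnt10b, Fcer2a and Rcan2 at least 1 of the 4 groups had no detected array, so their values depend on the offset and have no order. Positive changes were those of Trp63 (1.99), Mgmt (1.94), Tk1 (1.92), Lrp4 (1.87), Ass1 (1.84), Tnfsf8 (1.82), Spic (1.76), Ticam2 (1.60), Wnt10b (1.56) and Fcer2a (1.50). Further positive changes were those of H2-DMa (1.23), Ccnd2 (1.17), Fas (1.02), Tnfrsf18 (0.94), Gna15 (0.91), Cd52 (0.88), Aldh4a1 (0.86) and Ccng1 (0.75). Negative changes were those of Asb2 (-2.93), Rsph1 (-2.07), Hmces (-1.76), Rcan2 (-1.73), Thbd (-1.57), Bcl2l1 (-1.02), Cd93 (-0.88), E2f2 (-0.84), Nlrc5 (-0.82), Socs2 (-0.81) and Vpreb3 (-0.65). All 29 were also called with the culture as a block, fixed or random. With each of the 12 arrays left out in turn, 16 kept the call throughout. Among the 13 that did not, Tnfsf8, Nlrc5 and Gna15 each lost it without 9 arrays (adjusted p up to 0.0939, 0.127 and 0.103), and the others are given above.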

How the results depend on the processing

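In withdrawn cells, the 1607 calls became 980 with only the 6 arrays of the comparison in the fit, 957 of them shared, and ran from 1174 to 1675 under the other settings that kept all arrays and genes. With 1 array left out they ran from 1242 to 1655, without chromosomes X and Y there were 1430 and without chromosome 2 there were 1367. For the comparison in IL-7, the 546 calls became 248 with only its 6 arrays, and 314 to 678 with 1 array left out. For the change of response, the 107 calls became 42 with only its 12 arrays, 57 with arrays scaled to a common median, 438 with the culture as a random block and 363 with the culture as a fixed block. With 1 array left out they ran from 54 to 177. For Art:Nfkb2 against Art the 337 calls became 476 with only its 6 arrays, and 215 to 259 with 1 array left out. The replicate number as a block gave 1675, 574, 111 and 360 calls in these comparisons. Between genotypes the arrays share only a number, so this block pairs no cultures across genotypes. For the change of response, the culture blocks pair the arrays of a genotype. Of 132 named genes followed and called in withdrawn cells, Pim1 not among them, 129 stayed called in the same direction under every alternative run. The exceptions were Il7r, lost with only the 6 arrays in the fit (limma adjusted p = 0.0558), Bcl10, lost there and with median scaling (adjusted p = 0.0552 and 0.0554), and Nfkbia. Nfkbia was lost under these settings, with no filter on dim probes, and without any 1 withdrawn Art array or without withdrawn Rag array 1 (adjusted p from 0.0525 to 0.149). The direction of 0 named genes turned. The higher calls ran from 6 to 8 for NF-kB subunits, 13 to 17 for NF-kB targets, 10 to 12 and 9 to 11 for p53 arrest and death targets, 9 to 11 for MHC class II and 0 to 7 for MHC class I. Where such changes are not from the number of arrays or genes tested, the cause was not tested. Genes detected on no array of a group have only bounds, and the sizes of other genes near background are uncertain.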
